A study of Mus musculus with 10 samples.

Results

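The leptin receptor gene Lepr and the 2 endospanin genes Leprot and Leprotl1 were followed through the livers of 10 mice. They are 3 of the 55291 genes in the count table, and all 3 passed the filter on low counts, as did 17015 genes in total. They were taken by symbol and were chosen by the measured Lepr counts of the vehicle livers, which were lower in Bap1-targeted than in control mice. The mice were females aged 16 to 20 weeks that carry a Lox-Stop-Lox Cas9 allele, and each received an AAV8 virus with a guide RNA under the U6 promoter and Cre under the hepatocyte promoter TBG. Guides were a non-targeting control (NTC) or targeted Bap1 (sgBap1), a nuclear deubiquitinase that acts on histone H2A. At day 10 after the virus the mice were given CCl4, 1 part in 9 parts of olive oil at 10 µL per g, or olive oil alone (Veh), and 48 hours later RNA of the right liver lobe was collected for sequencing. The groups were NTC-Veh (n = 2), sgBap1-Veh (n = 2), NTC-CCl4 (n = 3) and sgBap1-CCl4 (n = 3), with n in mice. All 4 groups carry the Cas9 allele and the virus, and Cre, and with it Cas9, is driven in hepatocytes alone, so that other liver cells in the lobe were not targeted by design.

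Lepr encodes a class I cytokine receptor that binds leptin, the hormone that fat cells release in proportion to fat stores. Bound receptors bring the kinase JAK2 into action, which passes the signal to STAT3 and other STAT proteins, and the induced protein SOCS3 turns the signal down again. The signalling form of the receptor is best known from the hypothalamus, where it restrains appetite, whereas liver makes mostly forms with a short intracellular tail and a soluble form that carries leptin in blood. Leprot (leptin receptor overlapping transcript, or endospanin 1) and its relative Leprotl1 (endospanin 2) encode small membrane proteins of endosomes and the Golgi that hold receptors such as those for leptin and growth hormone back from the cell surface. CCl4 is a solvent that hepatocyte enzymes near the central vein turn into a toxic radical, so that these hepatocytes die and the liver then regenerates.

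Despite the name of Leprot, the genes did not overlap in the mouse annotation used here (GENCODE vM21, GRCm38). Leprot (ENSMUSG00000035212.14) lies on the + strand of chromosome 4 from 101647718 to 101659364. Lepr (ENSMUSG00000057722.17) follows on the same strand from 101717404 to 101815352, so that 58039 bases separate the end of Leprot from the start of Lepr. Leprotl1 (ENSMUSG00000031513.8) lies on the - strand of chromosome 8 from 34135572 to 34147033. None of the 3 overlaps another annotated gene. Of the 7043 stretches of 50 bases in Lepr transcripts, 177 also occur in other genes, and of the 1897 stretches in Leprot transcripts 39 do, whereas no stretch of Leprotl1 is shared.

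The sequences before the starts of Leprot and Lepr are shown because the neighbouring genes differed in how their counts moved. Each has 180 bases of the + strand of GRCm38.p6 from RefSeq's promoter table, ending 71 bases before the RefSeq start, at chr4:101647533-101647712 for Leprot and chr4:101717157-101717336 for Lepr. Capitals mark the GC box (GGGCGG), the TATA box (TATAAA) and the CCAAT box (CCAAT), searched on both strands, and a match is a description of the letters and not of a bound site.
Leprot: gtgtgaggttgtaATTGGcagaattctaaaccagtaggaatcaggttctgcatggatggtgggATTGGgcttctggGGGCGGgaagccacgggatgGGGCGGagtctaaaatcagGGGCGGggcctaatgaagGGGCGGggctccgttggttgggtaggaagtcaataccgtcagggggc
Lepr: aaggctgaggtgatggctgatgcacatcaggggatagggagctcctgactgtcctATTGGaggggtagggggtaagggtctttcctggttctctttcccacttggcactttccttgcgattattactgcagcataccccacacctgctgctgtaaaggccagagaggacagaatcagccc

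The Leprot window held 4 GC boxes and 2 CCAAT boxes, the latter on the reverse strand. The Lepr window held no GC box and 1 CCAAT box, also on the reverse strand. Of the 32851 windows of this length in the table, 21.1% held a GC box and 25% a CCAAT box. A TATA box, which 8.37% of windows held, was in neither, nor was the STAT motif TTCNNNGAA, which 5.26% held. The bases between each window and the start were not searched, so that a TATA box there could not be found. G and C made up 57.8% of the Leprot window and 53.9% of the Lepr window. RefSeq lists a further start of Lepr, whose window held 1 GC box and no CCAAT box.

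The libraries held 33047904 to 52199904 estimated counts per mouse. Values are CPM, counts scaled to a common size of the TMM-normalized library, in which 3 counts correspond to 0.0511 to 0.112 CPM, a limit that covers counting error only. Adjusted p-values are two-sided, from edgeR's quasi-likelihood test with all 4 groups in the model, adjusted by Benjamini-Hochberg over the 17015 tested genes, and a gene is called at an adjusted p under 0.05. Bap1, the targeted gene, measured 34.8 CPM in both NTC-Veh livers and 29.5 to 31.5 in the NTC livers given CCl4, against 17.5 and 19.5 in the vehicle and 16.99 to 21.8 in the CCl4 livers of sgBap1 mice. Defining hepatocyte genes summed to 66978 to 148078 CPM over 7 of the 8 listed. The sgBap1-CCl4 replicate 2 liver stood apart in fat cell genes. Adipoq, which encodes adiponectin, reached 36.3 CPM there, and Plin1, which coats fat droplets, 34.5 CPM, and both had at most 2 counts in every other liver. The 6 fat cell markers of the list summed to 289 CPM in it and to at most 15.4 CPM in each of the other 9, and Lep, Retn and Cfd were at 0 in the other 3 groups.

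Lepr was highest in the NTC-Veh livers and far lower in each of the other 3 groups. It measured 31.7 and 42.1 CPM in the NTC-Veh livers, from 1166 and 1520 counts. The sgBap1-Veh livers had 10.3 and 12.0 CPM. The NTC-CCl4 livers had 12.4, 9.86 and 10.7 CPM. The sgBap1-CCl4 livers had 9.67, 6.02 and 7.67 CPM, from 568, 352 and 361 counts. The NTC-Veh livers stood clear of all other livers, the sgBap1-Veh values lay within the range of the NTC-CCl4 values, and each sgBap1-CCl4 liver lay below every liver of the other groups. Group means were 36.9 ± 7.33 (SD, n = 2), 11.2 ± 1.19 (n = 2), 10.98 ± 1.30 (n = 3) and 7.79 ± 1.83 (n = 3) in this order. In bulk tissue fewer cells of a type and less RNA per cell cannot be told apart.

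**Figure D1:**
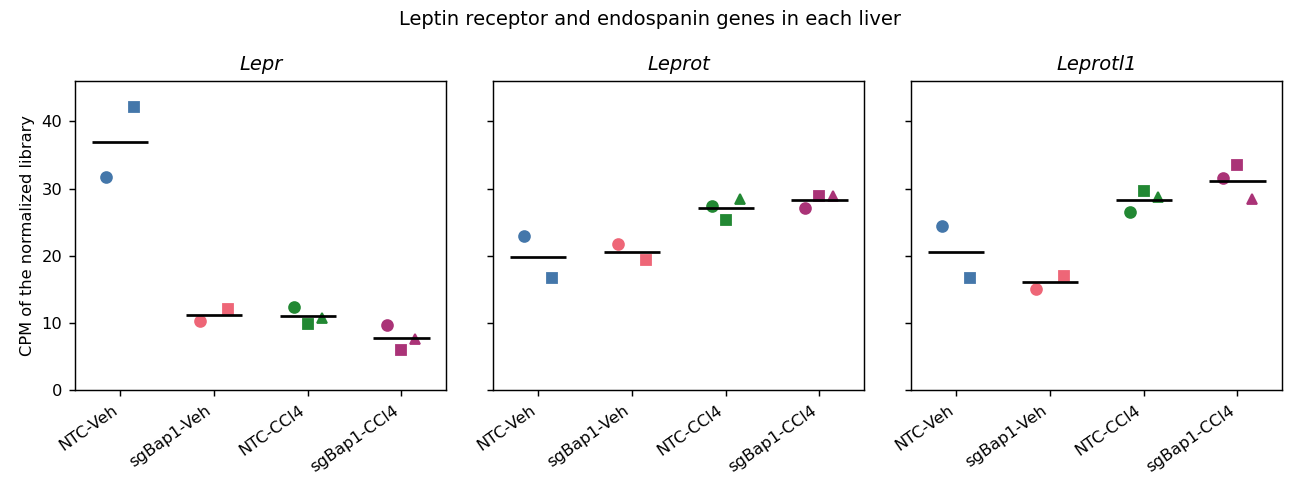
CPM of the normalized library of Lepr, Leprot and Leprotl1 in each of the 10 livers, with a point per mouse (circle, square and triangle for replicates 1, 2 and 3) and a bar at the group mean. Lepr stood at 31.7 and 42.1 in the NTC-Veh livers and between 6.02 and 12.4 in the other 8, while Leprot and Leprotl1 were highest in the livers given CCl4.

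Since Lepr was picked for its difference between the vehicle groups, that difference and those that share these mice are given as descriptions without a test. For sgBap1-Veh against NTC-Veh livers the fitted log2 fold change of Lepr was -1.73 (SE 0.220), a level 0.302 times that of NTC-Veh. The groups did not overlap, as was so for 19.2% of all tested genes in this direction. With CCl4 in NTC livers its log2 fold change was -1.75 (SE 0.192) against vehicle, and 35% of all genes were lower without overlap there. With CCl4 in sgBap1 livers it was -0.52 (SE 0.200), where 34.9% were lower without overlap. The difference of these last log2 fold changes, sgBap1 minus NTC, was 1.23 (SE 0.280). Without either NTC-Veh mouse the vehicle difference ranged from -1.92 to -1.51.

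The CCl4 values depend on how the libraries are scaled. Scaled by library size alone, the median of all tested genes shifted from 0.03 to 0.50 for NTC-CCl4 against NTC-Veh, and from 0.04 to 0.52 for sgBap1-CCl4 against sgBap1-Veh. Lepr then measured -1.28 in NTC and -0.05 in sgBap1 livers, so that both stayed below the median of all genes. Leprot measured 0.93 and 0.94 with that scaling, and Leprotl1 0.94 and 1.45, in the same order. The sgBap1-CCl4 liver with fat cell genes also had the lowest Lepr value. Without it the log2 fold change of Lepr with CCl4 in sgBap1 livers was -0.36 (SE 0.179), and without sgBap1-CCl4 replicate 1 it was -0.71 (SE 0.187).

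The comparison of sgBap1-CCl4 with NTC-CCl4 livers sets no vehicle mouse against another mouse and could be tested. Lepr was at 7.67 CPM in the median sgBap1-CCl4 liver and 10.7 in the median NTC-CCl4 liver, and the groups did not overlap, but only narrowly, with 9.67 as the highest of one and 9.86 as the lowest of the other. Of all tested genes 10.2% were lower without overlap between these groups. The log2 fold change was -0.49 (SE 0.178, 95% interval -0.89 to -0.10), which did not pass the threshold (edgeR adjusted p = 0.259). In this comparison 56 genes were called, 0.329% of those tested. Without the liver with fat cell genes the log2 fold change of Lepr was -0.34 (adjusted p = 0.513), and without sgBap1-CCl4 replicate 1 it was -0.68 (adjusted p = 0.205).

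Marker genes of other cells and of liver zones moved with the groups in which Lepr differed, and their part in the Lepr values was not tested. From NTC-Veh to sgBap1-Veh livers the summed CPM of 5 Kupffer cell markers went from 153 to 257 up to 321 to 491, and that of 9 infiltrating leukocyte markers from 8.64 to 15.4 up to 18.7 to 20.7. The 7 hepatocyte markers summed to 119977 to 148078 CPM in NTC-Veh and 105061 to 112445 in sgBap1-Veh livers. Stellate cell markers, 8 genes of a cell type that surrounds the sinusoids, summed to 263 to 277 CPM in NTC-Veh and 287 to 320 in sgBap1-Veh livers. Sinusoidal endothelial markers, also 8 genes, summed to 240 to 266 and 256 to 362 CPM. In each of these lists 0 markers were called between the vehicle groups, against 0.406% of all tested genes. With CCl4 the 8 pericentral hepatocyte markers fell from 14032 to 16055 CPM in NTC-Veh down to 1168 to 1557 in NTC-CCl4 livers, and all 8 were called lower, where 53.9% of all tested genes were called in either direction. They measured 12568 and 14180.1 CPM in the sgBap1-Veh livers, against 1235 to 1543 in sgBap1-CCl4 livers. Periportal markers, 8 genes as well, went from 8834 to 10126 CPM in NTC-Veh to 2673 to 2946 in NTC-CCl4 livers, with 6 lower and 1 higher among the calls. They measured 7958 to 11577 CPM in sgBap1-Veh and 2780 to 3890 in sgBap1-CCl4 livers. The sum of the hepatocyte markers with CCl4 was 74621 to 84830 CPM for NTC and 66978 to 86284 CPM for sgBap1 mice. These sums lay below every vehicle liver with the TMM scaling, on which this depends. Of the 7 hepatocyte markers 5 were called lower in NTC and 2 in sgBap1 livers, and none higher. With library size alone 3 were called lower in NTC livers, without Alb and Ttr, and 2 lower and 1 higher in sgBap1 livers. Kupffer cell markers then summed to 426 to 837 CPM for NTC and 411 to 600 CPM for sgBap1 mice, and infiltrating leukocyte markers to 65.7 to 74.9 and 61.4 to 72.8 CPM. In both lists the sum of each NTC-CCl4 liver was above that of each NTC-Veh liver. Of the 5 Kupffer cell markers 2 were called higher and none lower with CCl4 in NTC livers. In sgBap1 livers 1 of them was called higher and 2 lower. Of the 9 leukocyte markers 5 were called higher in NTC and 4 in sgBap1 livers, and none lower. The shares of all tested genes called were 53.9% in NTC and 57% in sgBap1 livers. The 5 markers of cholangiocytes, which line the bile ducts, summed to 4.49 to 7.89 CPM over the vehicle and 12.1 to 17.9 CPM over the CCl4 livers. Of these 5, 1 was called higher with CCl4 in each genotype. Stellate cell markers, at 243 to 301 CPM, and endothelial markers, at 254 to 311 CPM, overlapped in their sums between the CCl4 and the vehicle livers. Single markers moved both ways. Of the 8 stellate markers 4 were called higher and 3 lower in NTC livers, and 3 higher and 2 lower in sgBap1 livers. Of the 8 endothelial markers 3 were called higher and none lower in NTC livers, and 1 higher and 3 lower in sgBap1 livers. With library size alone none of the endothelial markers was called lower. No listed marker of these lists other than those of fat cells was at 0 in any group.

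Leprot, the neighbour of Lepr, was similar in both vehicle groups and higher with CCl4. It measured 22.9 and 16.7 CPM in NTC-Veh and 21.7 and 19.3 CPM in sgBap1-Veh livers. It measured 27.4, 25.4 and 28.5 CPM in NTC-CCl4 livers. In sgBap1-CCl4 livers it measured 27.1, 28.9 and 28.9 CPM. Every liver given CCl4 was above every vehicle liver, and within each treatment the genotypes overlapped. Of all tested genes 36.7% were higher with CCl4 without overlap in NTC livers and 37.3% in sgBap1 livers. Leprot rose with CCl4 in NTC livers by 0.45 on the log2 scale (SE 0.128, edgeR adjusted p = 0.0128), where 53.9% of all tested genes were called and 27.4% were called higher, so that such a call is common. It also rose in sgBap1 livers by 0.46 (SE 0.128, adjusted p = 0.0108), where 57% were called and 29% were called higher.

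Both calls of Leprot rest on few vehicle mice. The NTC call ended without NTC-Veh replicate 2 (0.24, adjusted p = 0.133), and without NTC-Veh replicate 1 the value was 0.69 (adjusted p = 0.00188). The sgBap1 call ended without sgBap1-Veh replicate 2 (0.38, adjusted p = 0.0894). In these fits the remaining vehicle mouse is assumed to vary like the mice of the other groups. Leprot did not pass the test between sgBap1-CCl4 and NTC-CCl4 livers, at 0.06 on the log2 scale (SE 0.112, 95% interval -0.19 to 0.31, edgeR adjusted p = 0.851). Between the vehicle groups, given as a description, it was 0.05 (SE 0.140), and the difference of the CCl4 changes, sgBap1 minus NTC, was 0.01 (SE 0.179).

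Leprotl1, the relative on chromosome 8, was also higher with CCl4 in both genotypes. It measured 24.4 and 16.7 CPM in NTC-Veh and 15.1 and 16.9 CPM in sgBap1-Veh livers. It measured 26.4, 29.6 and 28.7 CPM in NTC-CCl4 livers. In sgBap1-CCl4 livers it measured 31.6, 33.5 and 28.5 CPM. The vehicle groups overlapped, the CCl4 groups overlapped, and each liver given CCl4 was above each vehicle liver. Such a rise without overlap was seen for 36.7% of all tested genes in NTC and 37.3% in sgBap1 livers. Leprotl1 rose with CCl4 in sgBap1 livers by 0.96 on the log2 scale (SE 0.152, edgeR adjusted p = 0.000376), a level 1.95 times that of sgBap1-Veh, and this call held without any single mouse, at 0.88 to 1.05. In NTC livers it rose by 0.46 (SE 0.148, adjusted p = 0.0238).

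That NTC call ended without NTC-Veh replicate 2 (log2 fold change 0.21, adjusted p = 0.226), without NTC-CCl4 replicate 2 (0.42, adjusted p = 0.0606) and without NTC-CCl4 replicate 3 (0.45, adjusted p = 0.0545). Without NTC-Veh replicate 1 it was 0.76 (adjusted p = 0.00205). The NTC-Veh livers differed from each other more in Leprotl1 than the livers of any other group, with an SD of 5.47 CPM against 1.31 to 2.53. Between sgBap1-CCl4 and NTC-CCl4 livers the log2 fold change of 0.14 did not pass the test (SE 0.130, 95% interval -0.15 to 0.43, edgeR adjusted p = 0.660). As descriptions, the vehicle groups differed by -0.36 (SE 0.163), sgBap1 against NTC, and the CCl4 changes by 0.51 (SE 0.208), sgBap1 minus NTC. The vehicle difference was -0.06 without NTC-Veh replicate 1 and -0.61 without NTC-Veh replicate 2.

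**Figure D2:**
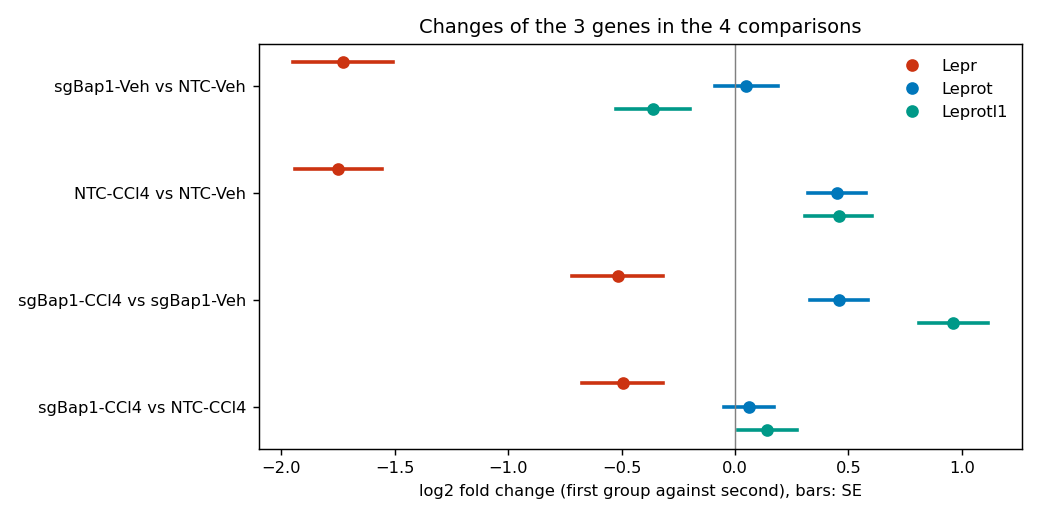
Log2 fold changes of the 3 genes in the 4 comparisons of groups, with points for the fitted value and bars for 1 SE to either side. Lepr lay at -1.73 and -1.75 in the first and second comparisons and at -0.52 and -0.49 in the others, while Leprot and Leprotl1 lay above 0 in both comparisons of CCl4 with vehicle.

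Per length of exon, the order of the 3 genes was the same in every group, with Leprot above Leprotl1 and Leprotl1 above Lepr. In NTC-Veh livers the levels were 10.5 ± 2.31 (SD, n = 2) CPM per kilobase for Leprot, 7.15 ± 1.90 for Leprotl1 and 5.24 ± 1.04 for Lepr. The neighbours Leprotl1 and Lepr in this order did not differ beyond their spread, since the single mice reached down to 5.80 for Leprotl1 and up to 5.97 for Lepr. In the other groups Lepr was at 1.58 ± 0.168 (sgBap1-Veh, n = 2), 1.56 ± 0.184 (NTC-CCl4, n = 3) and 1.10 ± 0.259 (sgBap1-CCl4, n = 3) CPM per kilobase, below the lowest mouse of both other genes. Lengths were 7049, 1898 and 2879 bases of exon for Lepr, Leprot and Leprotl1, and with the longest Lepr transcript of 5542 bases in place of all its exons its NTC-Veh level was 6.66 CPM per kilobase.

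Within a mouse the ratio of Lepr to Leprot, per length, needs no scaling of libraries. It was 0.372 and 0.678 in NTC-Veh livers and 0.128 and 0.167 in sgBap1-Veh livers. It was 0.122, 0.105 and 0.101 in NTC-CCl4 livers. In sgBap1-CCl4 livers it was 0.0962, 0.0562 and 0.0715. The 4 groups did not overlap in this ratio, which was highest in NTC-Veh and lowest in sgBap1-CCl4 livers. The ratio of Leprot to Leprotl1 overlapped between all the groups other than sgBap1-Veh, with 1.42 and 1.52 in NTC-Veh, 2.18 and 1.73 in sgBap1-Veh, 1.30 to 1.57 in NTC-CCl4 livers. The sgBap1-CCl4 livers had 1.30 to 1.54.

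Over the 10 livers, which share the split by treatment, the log2 CPM of Leprot and Leprotl1 correlated with r = 0.87 (n = 10), and with r = 0.61 after the group means were removed. Lepr correlated negatively with both, with r = -0.73 for Leprot and -0.50 for Leprotl1 (n = 10), and -0.55 and -0.53 within groups. The within-group values rest largely on the 2 NTC-Veh livers. Those had 22.9 and 16.7 CPM of Leprot, 24.4 and 16.7 of Leprotl1, and 31.7 and 42.1 of Lepr. In the sgBap1-Veh livers Leprot and Leprotl1 went opposite ways, with 21.7 and 19.3 against 15.1 and 16.9 CPM.

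The other genes of leptin signalling were read as a list of 23, from the hormone to the proteins that end the signal. Lep, which encodes leptin, had 0 counts in 8 livers, 1 count in another and 17 counts (0.291 CPM) in the sgBap1-CCl4 liver with fat cell genes, and was not tested. Of the 22 tested genes, 16 were called with CCl4 in NTC livers, 7 higher and 9 lower, which is 72.7% against 53.9% of all tested genes. In sgBap1 livers 16 were also called, 9 higher and 7 lower, against 57%. The median log2 fold changes of the list, 0.12 and 0.09, lay near the medians of all tested genes, 0.03 and 0.04. Scaled by library size alone the splits were 12 higher and 5 lower in NTC and 12 higher and 1 lower in sgBap1 livers. All tested genes then had 80.5% of their calls higher in NTC and 78.3% in sgBap1 livers, against 50.8% and 50.9% as reported. Without either sgBap1-Veh mouse fewer genes of the list were called in sgBap1 livers, and their share lay near that of all tested genes.

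Jak2, the kinase that the leptin receptor brings with it, rose with CCl4 in both genotypes. It was at 16.5 and 18.9 CPM in NTC-Veh and 25.3 to 34.8 in NTC-CCl4 livers, which is 0.74 on the log2 scale (SE 0.153, edgeR adjusted p = 0.00231). In sgBap1 livers it went from 14.97 and 19.4 CPM to 24.8 to 28.1, or 0.64 (SE 0.153, adjusted p = 0.00508). Sh2b1, an adaptor that strengthens JAK2 signalling, fell in both. Its log2 fold change was -0.72 (SE 0.075, adjusted p = 2.7e-05) in NTC livers and -0.64 (SE 0.075, adjusted p = 5.3e-05) in sgBap1 livers, where the call ended with scaling by library size alone. Ptpn11, the phosphatase SHP2 that links the receptor to the MAP kinase cascade, rose by 0.57 (SE 0.085, adjusted p = 0.000288) in NTC and by 0.82 (SE 0.086, adjusted p = 2.6e-05) in sgBap1 livers.

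Of the STAT genes, Stat3, the main transcription factor of the leptin signal, had 131 and 187 CPM in NTC-Veh and 173 to 220 CPM in NTC-CCl4 livers, which overlapped and did not pass the test (log2 fold change 0.26, adjusted p = 0.190). In sgBap1 livers it rose from 142 and 155 CPM to 188 to 221 CPM (0.48, SE 0.161, adjusted p = 0.0256). Stat5b, which mediates growth hormone signals in liver, fell by 0.68 (SE 0.092, adjusted p = 0.000154) in NTC and by 0.91 (SE 0.092, adjusted p = 2.1e-05) in sgBap1 livers. With scaling by library size alone its NTC call was lost.

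Among the genes that end the signal some rose and others fell with CCl4. Socs3 rose from 5.31 and 7.96 CPM in sgBap1-Veh to 29.8 to 35.1 CPM in sgBap1-CCl4 livers, by 2.29 (SE 0.282, adjusted p = 0.000123). In NTC livers it rose from 7.92 and 12.2 CPM to 25.3 to 42.8 CPM, by 1.71 (SE 0.271, adjusted p = 0.000606). Socs2 and Cish, which are induced by STAT5 and turn cytokine signals down, went the other way. Socs2 fell from 56.5 and 136 CPM in NTC-Veh to 8.28 to 22.6 CPM in NTC-CCl4 livers, or -2.49 on the log2 scale (SE 0.502, adjusted p = 0.00377). In sgBap1 livers its log2 fold change was -1.48 (SE 0.500, adjusted p = 0.0354), and this call was lost with library size alone. Cish fell in NTC livers (-1.58, SE 0.373, adjusted p = 0.00719), and in sgBap1 livers it had -0.87 (adjusted p = 0.0805). Ptpn1, the phosphatase PTP1B that acts on JAK2, rose by 0.95 (SE 0.135, adjusted p = 0.000202) in NTC and by 0.90 (SE 0.135, adjusted p = 0.000271) in sgBap1 livers. Adam10, a protease that can release the soluble receptor from the membrane, rose by 1.06 (SE 0.106, adjusted p = 2.1e-05) in NTC and by 1.08 (SE 0.106, adjusted p = 1.7e-05) in sgBap1 livers. It went from 31.0 and 33.4 CPM to 61.8 to 70.0 CPM in NTC livers. The groups did not overlap in either genotype. Of all tested genes 36.7% were higher without overlap in NTC and 37.3% in sgBap1 livers.

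**Figure D3:**
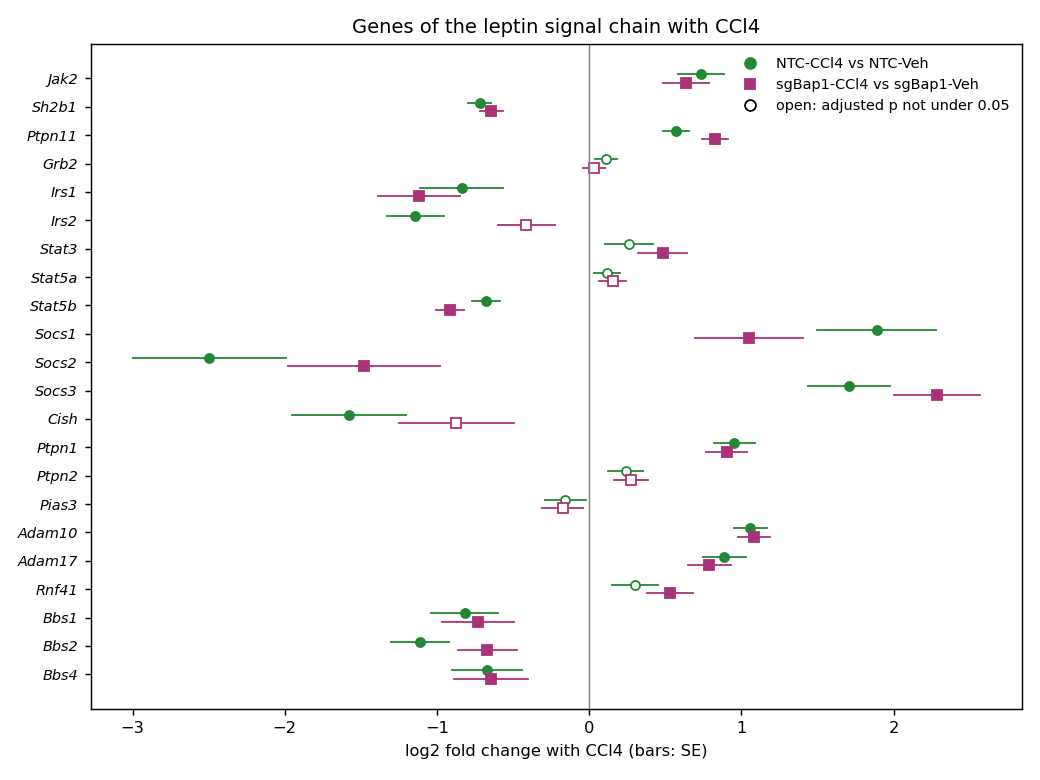
Log2 fold changes with CCl4 of the 22 tested genes of the leptin signal chain, in NTC livers (circles) and sgBap1 livers (squares), with bars for 1 SE and open symbols where the adjusted p was not under 0.05. Socs3, Socs1, Adam10, Ptpn1 and Jak2 lay above 0 and Sh2b1, Stat5b, Irs1 and Bbs2 below 0 in both genotypes.

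Between genotypes none of these 22 genes was called by edgeR. For sgBap1-CCl4 against NTC-CCl4 livers 0 of 22 were called by edgeR, DESeq2 or limma-voom, against 0.329% of all genes by edgeR. By edgeR 2376 of the 17015 tested genes had an unadjusted p under 0.05, and 1 of the 22 did. This was Stat5a, with a log2 fold change of -0.26 (SE 0.076) and no overlap between the groups, as was so for 10.2% of all tested genes in this direction. Between the vehicle groups 0 of 22 were called by the same tools, against 0.406% of all genes by edgeR. By edgeR 2100 of the 17015 tested genes had an unadjusted p under 0.05 there, and 5 of the 22 did. As this comparison chose Lepr, its values are descriptions. The 5 were Irs2, an adaptor of the insulin receptor (-0.69, SE 0.207), Stat5a (-0.29, SE 0.096), Cish (-1.15, SE 0.419), Socs2 (-1.30, SE 0.556) and the adaptor Grb2 (0.19, SE 0.078). Irs2 was at 45.1 and 61.1 CPM in NTC-Veh and 26.8 and 38.9 CPM in sgBap1-Veh livers.

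Other receptors of the class I cytokine family gave a background for the size of the Lepr difference. Of 11 listed, 10 were tested, and with CCl4 in NTC livers 4 were called higher and 4 lower, against 53.9% of all genes, with a median log2 fold change of -0.54. In sgBap1 livers 4 were called higher and 5 lower, against 57% of all genes, with a median of -0.43. With library size alone the medians were -0.06 in NTC and 0.05 in sgBap1 livers, where the call of Il11ra1, a receptor for interleukin 11, was lost. Lifr, the receptor for leukaemia inhibitory factor, fell from 522 and 638 CPM in NTC-Veh to 167 to 209 CPM in NTC-CCl4 livers, by 1.57 (SE 0.144, adjusted p = 1.2e-05). Ghr, the growth hormone receptor, fell by 1.91 (SE 0.188, adjusted p = 1.9e-05) and Prlr, the prolactin receptor, by 1.61 (SE 0.163, adjusted p = 2.2e-05). In the same livers Lepr had -1.75, as a description.

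Between sgBap1-Veh and NTC-Veh livers, with values as descriptions, these receptors had a median log2 fold change of 0.28, beside 0.02 for all tested genes. Lepr had -1.73, but it was picked for this difference and the other receptors were not. Ghr was at 510 and 526 CPM in NTC-Veh and 538 and 704 CPM in sgBap1-Veh livers, and Lifr at 522 and 638 against 481 and 485 CPM. Il6ra, the interleukin 6 receptor, had the smallest p of the list between sgBap1-CCl4 and NTC-CCl4 livers, at 0.67 on the log2 scale (SE 0.166, adjusted p = 0.123).

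Of 9 receptors for metabolic hormones, all tested, 7 were called lower with CCl4 in NTC livers and none higher, against 53.9% of all genes called in either direction, with a median log2 fold change of -0.57, but with library size alone 4 were lower and 1 was higher, and Adipor1 changed direction. In sgBap1 livers 6 were called lower and 1 higher, against 57% of all genes, with a median of -0.99, and with library size alone 5 were lower and 3 higher. Adipor2, a receptor for adiponectin, fell by 0.98 (SE 0.097, adjusted p = 1.9e-05) in NTC and by 1.48 (SE 0.097, adjusted p = 1.9e-06) in sgBap1 livers. Insr, the insulin receptor, fell from 193 and 208 CPM in NTC-Veh to 94.7 to 109 CPM in NTC-CCl4 livers, by 0.96 (SE 0.097, adjusted p = 2.3e-05). Insr fell by 0.99 (SE 0.097, adjusted p = 1.7e-05) in sgBap1 livers.

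Around Leprot and Lepr, 27 further genes of the table lie within 500 kb, of which 8 were tested. Jak1, a kinase of other cytokine receptors, ends 382435 bases before Leprot. The nearest tested genes were Ak4, a mitochondrial adenylate kinase, before Leprot, and the pseudogene Gm12791 after Lepr. With CCl4 in NTC livers 1 of the 8 was called higher and 3 lower, against 53.9% of all genes, and in sgBap1 livers 1 higher and 4 lower, against 57%. In NTC livers 0610043K17Rik, at a mean of 0.782 CPM in NTC-Veh, had -1.66 (SE 0.344) and E130102H24Rik -1.50 (SE 0.206), beside -1.75 for Lepr. In sgBap1 livers they had -2.67 (SE 0.340) and -1.21 (SE 0.203), beside -0.52 for Lepr. Between the vehicle groups Lepr, picked for its fall there, had -1.73, and its place below its neighbours follows from that choice. As descriptions, the log2 fold changes of the 8 ran from -0.61 to 0.86. The lowest was Pde4b (SE 0.101), the 1 gene of the 8 called by edgeR, against 0.406% of all genes. Pde4b was not called by limma-voom, with library size alone, with the replicate block or with only the groups compared. Of the fits without 1 CCl4 mouse, it was called only without sgBap1-CCl4 replicate 1 or replicate 2. Its call held with DESeq2, with DESeq2 size factors, with the other filters and with edgeR's earlier method. The highest was Raver2 (SE 1.01), at means of 0.274 CPM in NTC-Veh and 0.494 CPM in sgBap1-Veh livers. Ak4 was at 77.9 ± 8.35 CPM (SD, n = 2) in NTC-Veh and 114 ± 5.54 (n = 2) in sgBap1-Veh livers. Around Leprotl1, 31 genes of the table lie within 500 kb and 8 were tested, with 3 called higher and none lower with CCl4 in NTC livers, against 53.9% of all genes called, and 4 higher and 1 lower in sgBap1 livers, against 57%. The nearest tested gene, Saraf, which limits calcium entry, was at 109 ± 12.1 CPM in NTC-Veh (n = 2) and 96.1 ± 4.67 in NTC-CCl4 livers (n = 3), at -0.19 on the log2 scale (SE 0.096, adjusted p = 0.130). On the other side, Gm10131 rose by 0.97 (SE 0.176, adjusted p = 0.00099).

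**Figure D4:**
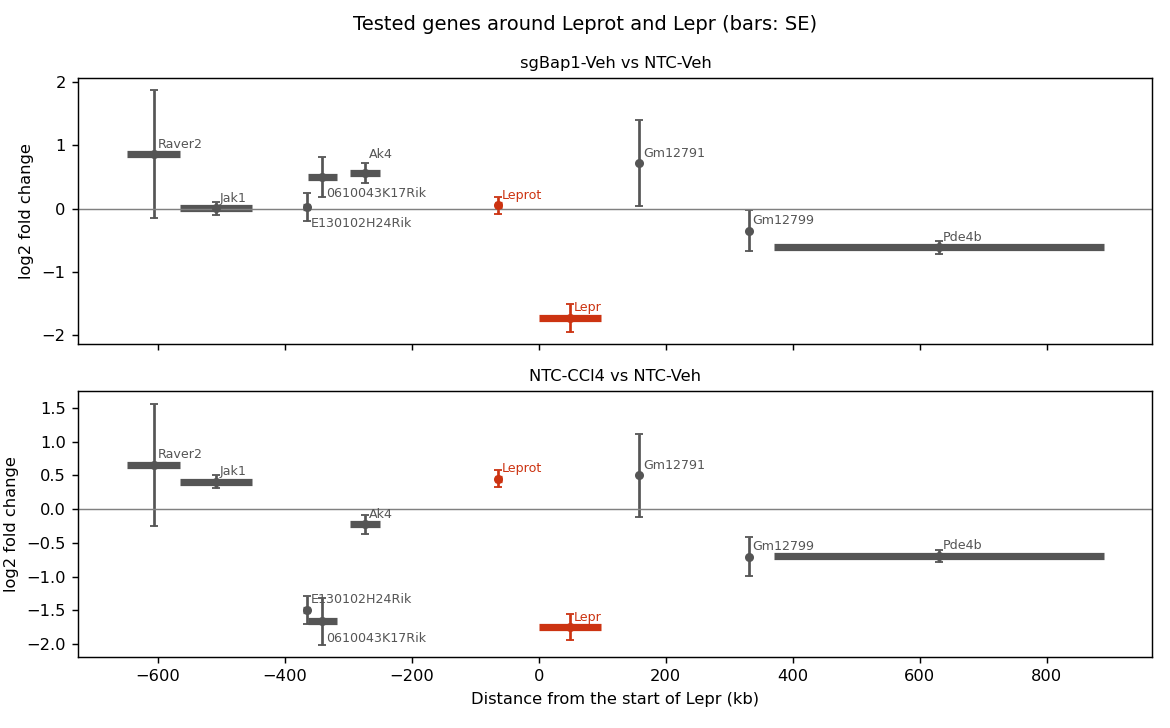
Log2 fold changes of the tested genes within 500 kb of Leprot and Lepr against the distance from the start of Lepr in kb, for sgBap1-Veh against NTC-Veh (top) and NTC-CCl4 against NTC-Veh (bottom), with horizontal bars for the span of a gene and vertical bars for 1 SE. Lepr, which was picked for the difference in the top panel, lay lowest in both panels, at -1.73 and -1.75. Leprot lay at 0.05 and 0.45. In the bottom panel 0610043K17Rik, at -1.66, and E130102H24Rik, at -1.50, lay near Lepr.

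The genes whose log2 CPM followed that of Lepr most closely over the 10 livers were Pold2 (Pearson r = 0.96), Pde4b (0.96), Prpf40b (0.95), Tpst1 (0.94), Aars2 (0.94), Cfap410 (0.94), Cdc42bpg (0.94) and Bri3bp (0.94). They were the 8 highest of the 12027 other genes that averaged 100 counts or more, and with ranks in place of values only Tpst1 remained among the top 8. They were chosen for this likeness and so are descriptions. Each was highest in the NTC-Veh livers, but with smaller differences than Lepr. Pde4b, a phosphodiesterase that breaks down cyclic AMP, was at 44.4 and 44.5 CPM in NTC-Veh and 28.7 and 29.4 CPM in sgBap1-Veh livers. It was at 26.5 to 29.0 CPM in NTC livers given CCl4 and 20.6 to 24.3 CPM in those of sgBap1 mice, the same order of groups as for Lepr. Pde4b is also a neighbour, which starts 272191 bases past the end of Lepr. Pold2, a subunit of DNA polymerase delta, was at 12.9 and 15.1 CPM in NTC-Veh and 9.48 to 11.2 CPM in all other livers.

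**Figure D5:**
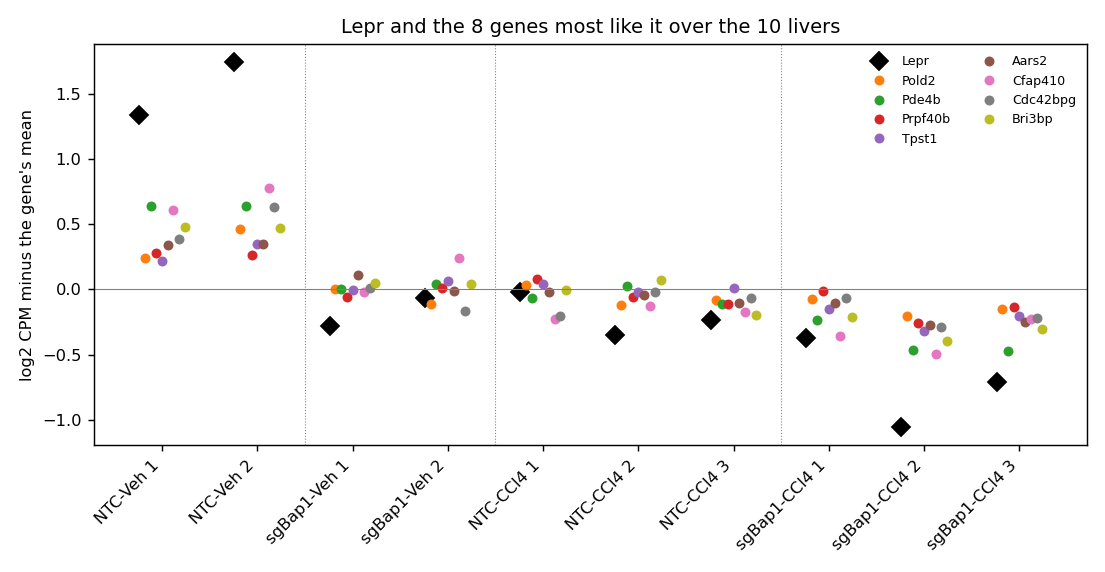
Log2 CPM of Lepr (black diamonds) and of the 8 genes most like it, each minus its own mean over the 10 livers, with dotted lines between the groups. All 9 genes were highest in the NTC-Veh livers, and Lepr, at 31.7 and 42.1 CPM there, spread more widely than the others.

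The genes most like Leprot were Sec61g (r = 0.98), Acer2 (0.98) and Spcs2 (0.98), over the same 10 livers. Sec61g and Spcs2 belong to the machinery that brings new proteins into the endoplasmic reticulum and trims their signal peptides, and Acer2 is a ceramidase of the Golgi. Those most like Leprotl1 were Mapkapk3 (0.99), Myc (0.99) and Arid5a (0.98). With ranks in place of values Sec61g and Acer2 remained among the 3 highest for Leprot, and none of these genes did for Leprotl1. Myc, a transcription factor of growing cells, averaged 10.03 CPM in NTC-Veh and 3.84 CPM in sgBap1-Veh livers, and with CCl4 21.8 CPM in NTC and 27.5 CPM in sgBap1 livers. These means followed the order of the Leprotl1 means, which were 20.6, 16.02, 28.2 and 31.2 CPM.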

How the data were processed

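Per the labels and the study's methods, mRNA of 10 livers was made into TruSeq stranded libraries and sequenced as pairs of 50 bases. The authors aligned reads with STAR 2.7.6a to GRCm38 and deposited the estimated counts (expected counts) that Salmon 1.4.0 gave per gene symbol on GENCODE vM25, without normalization. How Salmon handled strand is not given in the sources used here.

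Estimated counts were rounded, and edgeR 4.0.16 was run in R 4.3.3 (filterByExpr, TMM, glmQLFit with robust = TRUE, quasi-likelihood test, Benjamini-Hochberg). The SE is the log2 fold change divided by the square root of F. The analysis was run on simulated counts, scored for sgBap1-CCl4 against NTC-CCl4 alone. The comparisons with vehicle mice were not checked in this way. Alternatives were DESeq2 1.42.0 (size factors, Wald test), limma-voom (limma 3.58.1), library size alone, other filters, a replicate block, edgeR's earlier quasi-likelihood method, only the groups compared, Spearman's rho, the longest transcript, and each mouse left out in turn. Positions come from GENCODE vM21. The labels name no batch.

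Named are the 3 genes, Bap1, the 5 genes of the leptin chain with the smallest adjusted p per comparison with Lep, Jak2, Stat3 and Socs3, up to 3 per comparison of the other lists, the genes most like each member (log2 CPM, prior count 2), and the nearest tested neighbours. Jak1, Pde4b, 0610043K17Rik, E130102H24Rik and Raver2 as neighbours, Adipoq, Plin1 and Myc's means were added after their values were seen. So were the vehicle values of Ghr and Lifr, the chain genes named between genotypes, and Socs2 and Cish. Not every gene under the rule is reported. The members and the lists were chosen with earlier results of these data known. Tf, a listed hepatocyte marker, was not analysed here, and 1 gene beyond the 23 of the leptin chain is not reported here. Between mice of a group the mean chi-square per gene was 14.5 to 85.9, so each was counted as its own replicate.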

Additional observations from a re-analysis of the deposited data

How the results depend on the processing

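Of 19 alternatives, 10 left out a mouse. Lepr for sgBap1-CCl4 against NTC-CCl4 stayed lower and uncalled, at -0.51 to -0.49 (adjusted p 0.153 to 0.372), and at -0.68 to -0.34 without a mouse. With library size alone Lepr was -1.28 for NTC-CCl4 against NTC-Veh and -0.045 for sgBap1-CCl4 against sgBap1-Veh, and by its construction that setting shifts all genes. Lepr with its longest transcript stood at 6.66 CPM per kilobase in NTC-Veh, and 1 of its 8 most like genes stayed with Spearman's rho.

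Without a mouse, Leprot ranged from 0.24 to 0.69 for CCl4 in NTC, from 0.38 to 0.55 in sgBap1, from -0.16 to 0.29 between vehicle groups and from -0.23 to 0.22 for the difference of CCl4 changes. Leprotl1 ranged from 0.21 to 0.76 for CCl4 in NTC, from -0.61 to -0.065 between vehicle groups and from 0.21 to 0.75 for that difference. Chain calls for CCl4 in sgBap1 livers ranged from 13 to 17 over the 9 other alternatives, and were fewest without either sgBap1-Veh mouse.

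The replicate numbers did not pair the mice (correlations of deviations of -0.15 to 0.02 between mice of 1 number, and not every CCl4 mouse correlated best with its own number). With the replicate number as a block, Leprot was 0.43 and Leprotl1 0.49 in NTC (adjusted p = 0.0233 and 0.0442), Lepr was -0.50 for sgBap1-CCl4 against NTC-CCl4, and no call of the 3 genes changed.

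Calls over all genes were 69 between the vehicle groups and 56 between the CCl4 groups, against 562 and 509 by DESeq2, 25 and 54 by limma-voom, 1 and 24 with the block, 27 and 28 with only the groups compared, 32 and 62 with library size alone, 103 and 94 with no filter beyond 1 count, and 0 to 150 and 1 to 71 without a mouse. The 3 genes had 321 to 1956 counts per mouse, and the 2 mice of each vehicle group limit what could be tested.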
